A study of Mus musculus with 16 samples.

Results

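The BTG and TOB antiproliferative genes of the mouse, Btg1, Btg2, Btg3, Tob1 and Tob2, were followed through the first 48 h of adipocyte differentiation in 3T3-L1 cells. They are 5 of the 22254 protein-coding genes annotated on chromosomes 1 to 19 and X of mm9. The genes were chosen by name with measured values already seen, namely the islands of these same lists, so all of their values are descriptions with no test. For each gene the window was its body plus 50 kb on each side, and every enriched region, or island, that overlapped the window by at least 1 bp was taken from each of 16 ChIP-seq libraries.

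BTG and TOB proteins share a conserved amino-terminal domain that binds the deadenylases Cnot7 and Cnot8, and through them they shorten the poly(A) tails of mRNAs. The family is known for holding cells out of the cell cycle, and Btg2 is a classical immediate early gene and a target of p53. Post-confluent 3T3-L1 preadipocytes re-enter the cell cycle for a short mitotic phase after hormonal induction and then leave it for good as they become adipocytes. H3K27ac marks active promoters and enhancers, H3K4me1 marks enhancers whether or not they are active, and SETD5 is a chromatin protein with a SET domain.

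All cells were 3T3-L1, an established mouse preadipocyte line, induced after confluence with the MDI cocktail of insulin, dexamethasone and isobutylmethylxanthine. H3K27ac was profiled before induction (0 h) and on day 2 (48 h) in cells stably transduced with an empty retrovirus and in cells transduced with V5-tagged SETD5, with replicates A and B of each. SETD5-V5 was precipitated through its tag at 0 h and 6 h, again as replicates A and B, while H3K4me1 at 0 h and 48 h and endogenous SETD5 at 0 h and 6 h have 1 library each. The transgene was expressed from the viral long terminal repeat, described as a weak promoter, in cells that keep their own Setd5. The labels of the H3K4me1 libraries name the SETD5-V5 virus, which their titles do not, and those of replicate A of the SETD5-V5 precipitation give a dash for the virus, as do those of endogenous SETD5. The study calls the replicates of H3K27ac and of SETD5-V5 biological, from independent samples, and does not say whether each was a separate transduction.

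The 16 lists held from 2132 islands (endogenous SETD5, 0 h) to 50276 islands (H3K4me1, 0 h), and the 8 H3K27ac lists held 31292 to 39949 islands over 103 to 122 Mb. The SETD5-V5 lists differed far more among themselves. Replicate B at 0 h held 6666 islands and replicate A 16054, against 27220 and 35573 at 6 h. The lists give no reads within islands, so the depth behind a single island is unknown, and absence from a list means only that a region was below the caller's threshold. In bulk chromatin, more cells with a mark and more of the mark in each cell cannot be told apart. The label of the cells was read at marker genes. The promoters of Pdgfra and Col1a1, genes of fibroblasts and preadipocytes, lay under H3K27ac islands in all 8 libraries. Those of Ptprc (blood) and Epcam (epithelium) lay under none. Of the adipocyte genes, Pparg and Cebpa had promoter islands in all 8 libraries, at 0 h too, and Fabp4 in the 4 at 48 h only. The promoter of Dlk1, a preadipocyte gene, lay under an island in all 4 libraries at 0 h and in 1 of the 4 at 48 h.

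The promoters are shown first, because the longest H3K27ac islands of the family, at Tob2 and Btg1, lie over them. Each sequence covers 250 bases up to the RefSeq gene start, 5′ to 3′ on the strand of the gene. RefSeq gave 6 sequences for the 5 genes on GRCm38.p6, and each of the 6 matched mm9 at a single place, so that positions can be given on mm9. Btg1 lies at chr10:96079385-96079634 (plus strand), Btg2 at chr1:135975733-135975982 (minus strand), Btg3 at chr16:78377056-78377305 (minus strand), Tob1 at chr11:94072518-94072767 (plus strand) and Tob2 at chr15:81688757-81689006 (minus strand). For Btg3 the downstream of its 2 starts is printed. Capitals mark the matches to the motifs named after the sequences.
Btg1: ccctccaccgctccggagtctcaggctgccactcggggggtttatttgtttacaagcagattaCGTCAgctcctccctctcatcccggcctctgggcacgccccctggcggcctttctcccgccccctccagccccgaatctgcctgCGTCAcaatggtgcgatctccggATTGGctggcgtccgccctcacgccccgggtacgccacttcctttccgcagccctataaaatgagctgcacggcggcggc
Btg2: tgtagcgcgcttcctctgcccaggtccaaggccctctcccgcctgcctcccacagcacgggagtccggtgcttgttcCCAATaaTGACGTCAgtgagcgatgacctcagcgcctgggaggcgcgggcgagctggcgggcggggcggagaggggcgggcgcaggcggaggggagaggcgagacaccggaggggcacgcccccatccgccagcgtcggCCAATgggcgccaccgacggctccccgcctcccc
Btg3: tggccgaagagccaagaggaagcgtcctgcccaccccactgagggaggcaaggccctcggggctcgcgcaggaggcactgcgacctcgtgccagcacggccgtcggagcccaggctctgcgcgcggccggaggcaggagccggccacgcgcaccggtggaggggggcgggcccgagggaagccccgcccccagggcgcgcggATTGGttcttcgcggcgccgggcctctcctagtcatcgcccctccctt
Tob1: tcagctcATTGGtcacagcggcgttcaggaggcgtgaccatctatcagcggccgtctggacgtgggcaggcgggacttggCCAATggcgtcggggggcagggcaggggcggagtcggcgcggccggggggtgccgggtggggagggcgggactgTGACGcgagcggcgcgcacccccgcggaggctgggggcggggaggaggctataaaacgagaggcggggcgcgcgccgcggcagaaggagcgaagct
Tob2: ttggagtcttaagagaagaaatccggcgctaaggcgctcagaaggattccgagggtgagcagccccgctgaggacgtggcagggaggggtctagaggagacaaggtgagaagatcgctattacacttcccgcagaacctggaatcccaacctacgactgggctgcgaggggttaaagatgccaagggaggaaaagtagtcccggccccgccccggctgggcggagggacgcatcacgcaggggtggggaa

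Motifs were searched on both strands from 250 bases before to 50 bases after each start. The cAMP response element TGACGTCA was found at Btg2 alone of the family, at positions -166 to -159 from the start, and in 1.79% of all 32851 RefSeq promoters of that length. Its core TGACG, which is also counted inside the full element, was found at Btg1, Btg2 and Tob1 and in 20.8% of all promoters. Btg1 carried the core at -187 to -183 and at -103 to -99, and Tob1 carried it at -96 to -92. The CCAAT box was found at every member except Tob2 (37.4% of all promoters), with 2 matches each at Btg2 and Tob1. No member matched AP-1 (TGANTCA, 7.81% of all promoters), C/EBP (TTGCNNAA, 10.8%), TEAD (GGAATG, 14.7%), the E-box CACGTG (7.15%) or the glucocorticoid receptor core AGAACA (19.0%). The Tob2 promoter matched none of the motifs, which says only that these letters are not in this window. The 250 bases of Btg1, Btg2, Tob1 and Tob2 lay wholly inside an H3K27ac island in all 8 libraries. At Btg3 those of the downstream start were wholly covered in 4 of the 8. The upstream start of Btg3, which is not printed, had all 250 bases covered in 1 library and 174 in 2. G and C made up 60.4% to 75.2% of the printed sequences.

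The 5 windows held 279 islands in all. H3K27ac contributed 160 of them, 46 at Btg2, 41 at Btg1, 39 at Tob2, 25 at Tob1 and 9 at Btg3, summed over 8 libraries. H3K4me1 contributed 68, SETD5-V5 45 and endogenous SETD5 6. Btg3 had the fewest islands of every mark, with none of H3K4me1 and none of endogenous SETD5. Covered length, the number of bases of a window under islands, is used below for the window. The whole length of the island that overlaps the promoter (1000 bp upstream to 100 bp downstream of the annotated start) is used for the promoter.

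In empty-vector cells, induction was accompanied by more H3K27ac around 4 of the 5 genes, Btg1, Btg3, Tob1 and Tob2, and by less around Btg2. A gene was called higher or lower when both libraries of one group lay above or below both of the other. Over the 17777 genes with any island in these 4 libraries, 40.1% were called higher at 48 h and 23.3% lower, and nothing is read from the members' counts against these shares. With islands above the list's median score alone, Btg3 was no longer called higher and Btg2 was no longer called lower. In SETD5-V5 cells the same 4 genes were higher and Btg2 lower, where 31.9% of all genes were higher and 30.6% lower. Of these, Tob1 was no longer called with 20 kb on each side or when islands needed at least 50% of their length inside the window. Between vectors at 0 h, Btg3 was higher in SETD5-V5 cells and the other 4 overlapped (background 25.1% higher, 14.3% lower). Between vectors at 48 h, Btg1, Btg2 and Tob1 were lower in SETD5-V5 cells, Btg3 was higher and Tob2 overlapped (background 22.6% higher, 33.5% lower). These 4 comparisons share libraries with each other. The direction at Btg2 depends on the width of its window, as given with that gene.

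**Figure D1:**
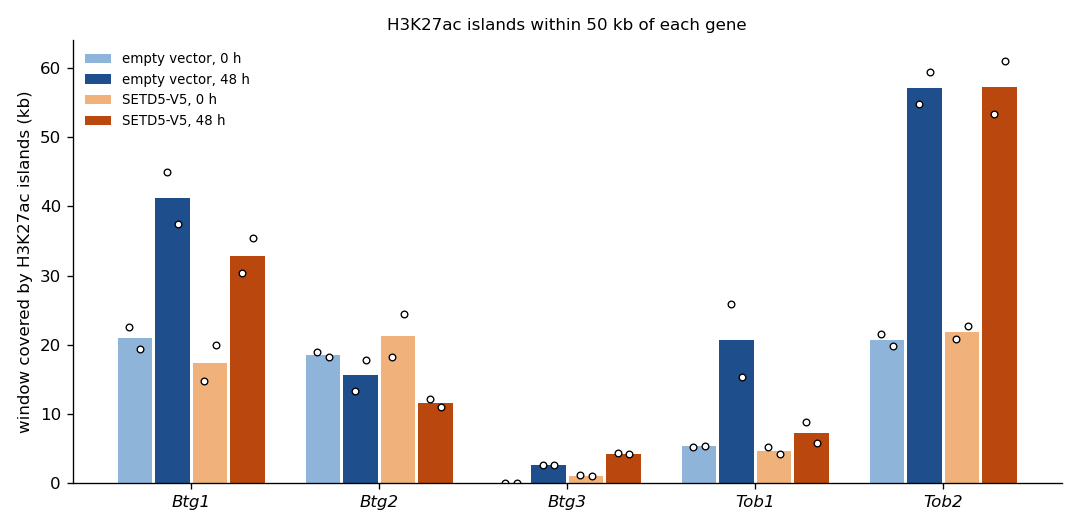
Kilobases of each gene's window (gene body plus 50 kb on each side) under H3K27ac islands, where bars are means of 2 libraries and circles are the libraries. At Tob1 the circles of empty-vector cells at 48 h (25.8 and 15.4 kb) sit above those of SETD5-V5 cells (8.84 and 5.83 kb), whereas at Tob2 the 48 h circles of both vectors lie between 53.4 and 61 kb.

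Over promoters, the island was longer at 48 h in empty-vector cells at Btg1, Tob1 and Tob2 (3 of 5 genes, background 29.5% higher and 13.1% lower) and overlapped at Btg2 and Btg3. In SETD5-V5 cells it was longer at Btg1, Btg3 and Tob2 (background 19.0% higher and 20.5% lower). Between vectors, the promoter island was shorter in SETD5-V5 cells at Btg1 at 0 h (background 11.3% lower, 14.3% higher) and at Tob2 at 48 h (background 26.3% lower, 11.0% higher). The promoter lay under an island in both empty-vector libraries at 0 h for 4 of the 5 genes, all but Btg3, where 42.9% of all genes did so. At 48 h it did so for the same 4, where 44.0% of all genes did.

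**Figure D2:**
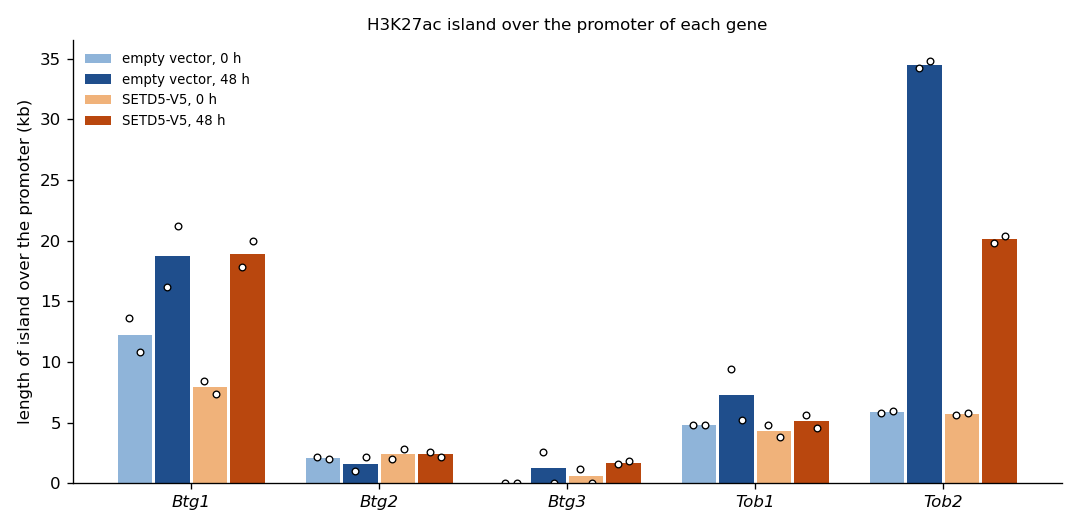
Length in kilobases of the H3K27ac island over each promoter, with bars for the mean of 2 libraries and circles for each library. The Tob2 island measured 5.6 to 6 kb in the 4 libraries at 0 h, 34.2 and 34.8 kb in empty-vector cells at 48 h and 19.8 and 20.4 kb in SETD5-V5 cells at 48 h.

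Btg1 encodes a BTG protein that also binds the arginine methyltransferase Prmt1. The gene spans chr10:96079635-96085447 on the plus strand, and its window holds no other protein-coding gene. H3K27ac covered 22.6 and 19.4 kb of the window in empty-vector replicates A and B at 0 h and 45 and 37.4 kb at 48 h. With SETD5-V5, 14.8 and 20 kb were covered at 0 h and 30.4 and 35.4 kb at 48 h. Both vectors thus had more at 48 h with no overlap, and the 48 h libraries of the vectors did not overlap each other either. The means were 41.2 ± 5.37 kb and 32.9 ± 3.54 kb at 48 h (SD, n = 2). With 100 kb on each side, the 48 h libraries of the vectors overlapped at Btg1 (mean difference -7.9 kb, against -8.3 kb). With 20 kb on each side they did not overlap, but the mean difference was only -1.4 kb.

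The Btg1 promoter lay under an island in all 8 H3K27ac libraries. In empty-vector cells that island was 13.6 and 10.8 kb long at 0 h and 16.2 and 21.2 kb at 48 h, and in SETD5-V5 cells it was 8.4 and 7.4 kb at 0 h and 17.8 and 20 kb at 48 h. At 48 h only 0.238% to 0.572% of the islands of a list had a higher score, against 3.39% to 4.31% at 0 h. At 0 h, between 7.17 and 13.8 kb of the start, a separate island followed the promoter island in both SETD5-V5 cell libraries (2.8 and 6.6 kb). Empty-vector replicate B also had one there (4.2 kb). In empty-vector replicate A the promoter island itself reached to 12.6 kb, and separate islands lay farther downstream. With islands within 1000 bp merged, the vectors overlapped at 0 h. The Btg1 promoter island at 48 h reached past the gene, whose body is 5.81 kb long, to between 14.6 and 19.2 kb from the start.

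Beyond the promoter, 3 regions of the Btg1 window were under H3K27ac in both empty-vector libraries at 48 h and neither at 0 h. The farthest upstream, from -47.8 to -41.2 kb of the start, held islands of 6.6 and 3.4 kb. In SETD5-V5 cells at 48 h the islands there measured 1.6 and 1.2 kb. The other regions lay at -7.43 to -6.24 kb and at 36 to 42.4 kb, and both were also under islands in both SETD5-V5 libraries at 48 h and in neither at 0 h. A further region from -39.4 to -36.4 kb was covered for 3 and 1.6 kb with the empty vector at 48 h and for 1.8 and 1.4 kb at 0 h. None of the 4 SETD5-V5 cell libraries had an island there. H3K4me1 covered 14.8 kb of the window at 0 h and 20.2 kb at 48 h, and at 48 h it covered 2.8 kb of the farthest region and 2 kb of the one that was bare in SETD5-V5 cells, where it had no island at 0 h. H3K4me1 was listed over the Btg1 promoter at neither time.

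**Figure D3:**
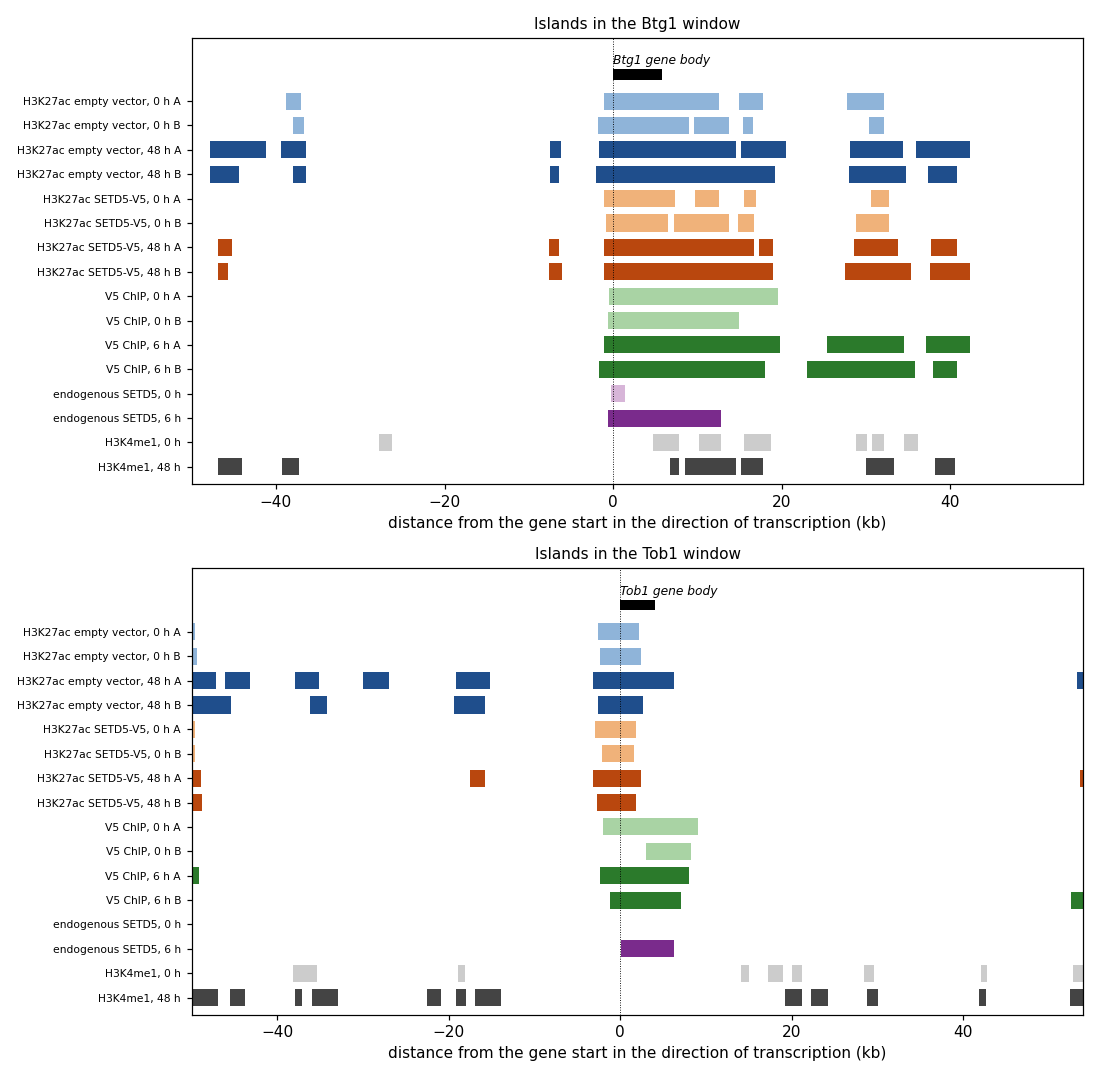
Islands of the 16 libraries in the windows of Btg1 and Tob1, each bar an island cut at the window's edge and the x axis the distance from the gene start in kilobases in the direction of transcription. At Tob1 the regions from -38 to -34.2 kb and from -19.4 to -15.2 kb carry H3K27ac bars in both empty-vector libraries at 48 h, and in none and 1 of the SETD5-V5 cell libraries.

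Tob1 encodes the founding TOB protein, which also binds the poly(A)-binding protein Pabpc1. It spans chr11:94072768-94076809 on the plus strand, and Wfikkn2 is the only other protein-coding gene of its window. H3K27ac covered 5.23 and 5.43 kb of the window in empty-vector cells at 0 h and 25.8 and 15.4 kb at 48 h. In SETD5-V5 cells the covered length was 5.23 and 4.23 kb at 0 h and 8.84 and 5.83 kb at 48 h. The vectors overlapped at 0 h and did not overlap at 48 h, when the mean difference was -13.3 kb in SETD5-V5 cells, against a median of -0.4 kb over all genes. The 2 empty-vector libraries at 48 h differed by more than those of any other Tob1 group (SD 7.36 kb, n = 2). With islands above the list's median score alone, the mean difference of 48 h and 0 h fell from 15.3 to 5.7 kb in empty-vector cells. In SETD5-V5 cells it fell from 2.6 to 1.5 kb.

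The Tob1 promoter island was 4.8 kb in both empty-vector libraries at 0 h and 9.4 and 5.2 kb at 48 h. In SETD5-V5 cells it was 4.8 and 3.8 kb at 0 h and 5.6 and 4.6 kb at 48 h, so that the vectors overlapped at both times. Upstream of the gene, a region from -38 to -34.2 kb carried 2.8 and 2 kb of H3K27ac with the empty vector at 48 h and none in the other 6 H3K27ac libraries. A region from -19.4 to -15.2 kb held islands of 4 and 3.6 kb there, and 1.8 kb in replicate A alone of SETD5-V5 cells at 48 h. These islands ranked low. In the empty-vector libraries, 87.2% and 77.3% of islands scored higher at the first region and 77.5% and 76.8% at the second. For the 1.8 kb island of SETD5-V5 cells, 96.1% scored higher. H3K4me1 was present at both regions before induction, with 2.6 and 0.8 kb at 0 h and 2.6 and 3 kb at 48 h.

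The highest-scoring H3K27ac island of the Tob1 window in empty-vector cells at 48 h was not the promoter island. It straddled the upstream edge of the window, from -55 to -47.2 kb in replicate A (7.8 kb) and from -54.6 to -45.4 kb in replicate B (9.2 kb). Only 0.697% and 0.667% of the islands of these lists scored higher. At 0 h the islands at this place measured 3.8 and 3.6 kb, with 14.1% and 13.9% of islands scoring higher. In SETD5-V5 cells they measured 3.8 and 3.4 kb at 0 h and 5.2 and 5 kb at 48 h, when 3.34% and 4.55% of islands scored higher. Among islands reaching into the window, H3K4me1 had none there at 0 h and one of 7.4 kb at 48 h. That island had the highest H3K4me1 score of the window. SETD5-V5 had a 3.8 kb island at this place in replicate A at 6 h, and in no other SETD5-V5 library did an island there reach into the window. Islands wholly beyond the edge, 50 kb from the gene, were not read.

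Tob2 encodes the second TOB protein. Its overlapping annotation records were joined to chr15:81678700-81689226 on the minus strand, and the other genes of the window include Tef, Gm8444 and Phf5a. H3K27ac covered 21.6 and 19.8 kb of the window in empty-vector cells at 0 h and 54.8 and 59.4 kb at 48 h. Cells with SETD5-V5 had 20.8 and 22.8 kb at 0 h and 53.4 and 61 kb at 48 h. Coverage at 48 h did not overlap that at 0 h in either vector, and the vectors overlapped at both times (57.1 ± 3.25 and 57.2 ± 5.37 kb at 48 h, SD, n = 2). The overlap at 48 h depends on the width of the window. With 20 kb on each side, Tob2 was called lower in SETD5-V5 cells (mean difference -3.7 kb). Only 12.8% of this crowded window lies nearer to the Tob2 start than to that of another protein-coding gene. Over those bases alone, coverage was 5.8 and 6 kb at 0 h and 12.9 and 13.1 kb at 48 h in empty-vector cells.

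At 48 h, empty-vector cells carried a single H3K27ac island over Tob2, of 34.2 kb in replicate A and 34.8 kb in replicate B, against 5.8 and 6 kb at 0 h. It ran from -5.37 to 28.8 kb of the start in replicate A, past the end of the gene, and only 0.173% and 0.166% of islands scored higher. Of all genes, 0.216% and 0.162% had a longer promoter island in these 2 libraries. In SETD5-V5 cells the promoter island measured 5.6 and 5.8 kb at 0 h and 19.8 and 20.4 kb at 48 h. A second island of 10.4 and 12.6 kb lay downstream of it across a gap of 1.8 and 1 kb, and together the pair came to 30.2 and 33 kb. The promoter island was thus shorter in SETD5-V5 cells at 48 h, with a break in the stretch, while the covered length of the window overlapped between vectors. H3K4me1 at 48 h had islands of 9.4 kb from 4.43 to 13.8 kb and of 12 kb from 17 to 29 kb of the start, and none over the promoter.

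**Figure D4:**
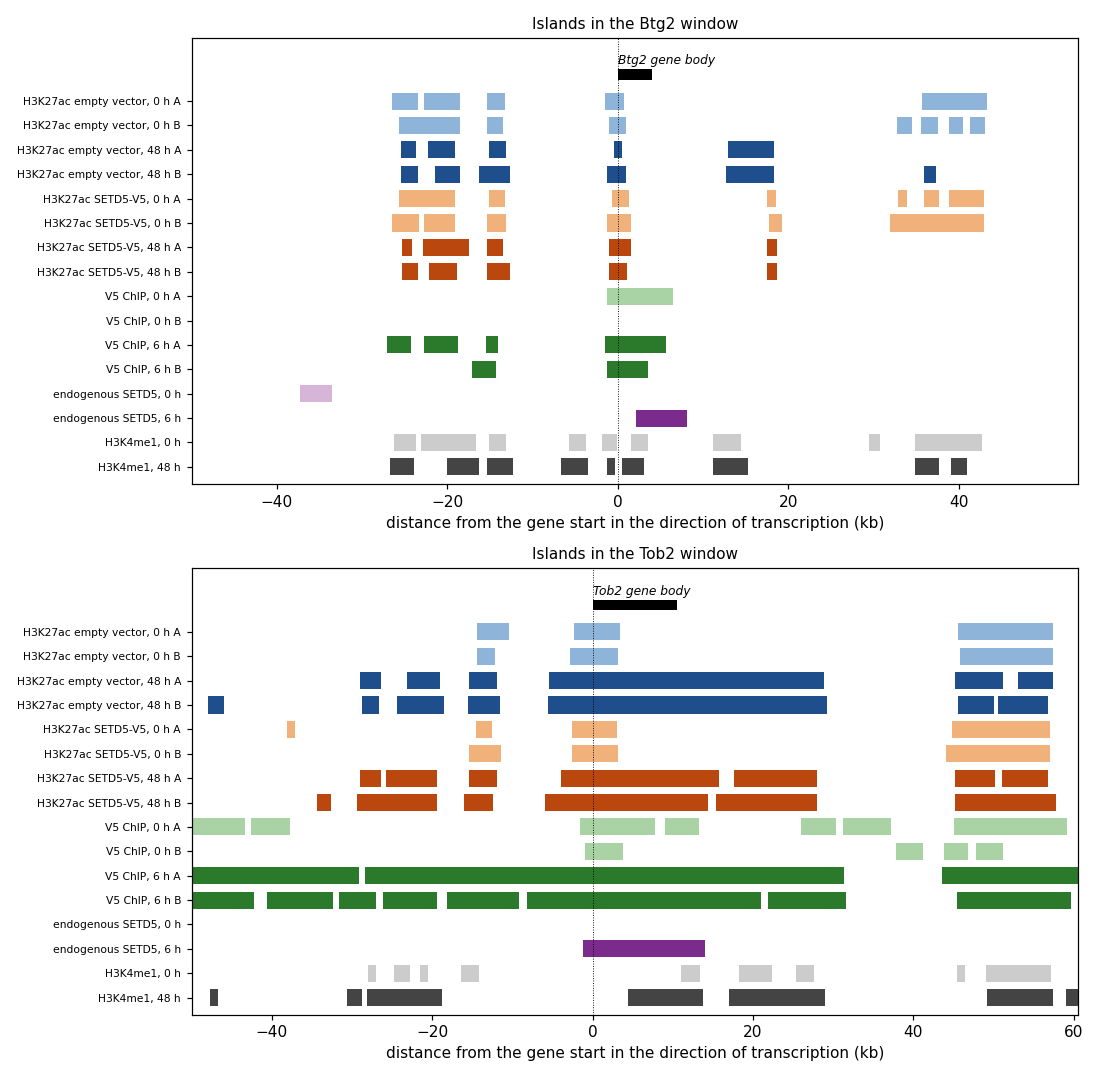
Islands of the 16 libraries in the windows of Btg2 and Tob2, each bar an island cut at the window's edge and the x axis the distance from the gene start in kilobases in the direction of transcription. At Tob2 the long empty-vector bar at 48 h (34.2 and 34.8 kb) is broken into a pair of bars in SETD5-V5 cells, and SETD5-V5 itself at 6 h covers 97.5 and 89.6 kb of the window.

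Btg2 encodes the immediate early member of the family and binds Prmt1 like Btg1. It spans chr1:135971747-135975697 on the minus strand, with Fmod, Gm8618 and Chit1 in its window. H3K27ac covered 19 and 18.2 kb in empty-vector cells at 0 h and 13.4 and 17.8 kb at 48 h. It covered 18.2 and 24.4 kb at 0 h and 12.2 and 11 kb at 48 h in SETD5-V5 cells. The window as a whole therefore had less at 48 h in both vectors, but this did not hold near the gene. With 20 kb on each side, the mean difference of 48 h and 0 h turned to 5.6 kb in empty-vector cells and to 1 kb in SETD5-V5 cells. Over the bases nearest to the Btg2 start, which make up 34.7% of the window, coverage with the empty vector was 4.01 and 3.61 kb at 0 h and 8.4 and 10.2 kb at 48 h.

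The Btg2 promoter island was short at all times, 2.2 and 2 kb in empty-vector cells at 0 h and 1 and 2.2 kb at 48 h, and between 2 and 2.8 kb in SETD5-V5 cells. Between 38.2% and 74.5% of islands scored higher, so that this promoter stood far lower in the lists than that of Btg1. A region downstream of the gene, from 12.7 to 18.3 kb, was covered for 5.4 and 5.6 kb with the empty vector at 48 h and not at 0 h. In SETD5-V5 cells islands of 1 to 1.6 kb already lay at 17.5 to 19.3 kb at 0 h, and they measured 1.2 kb in both libraries at 48 h. Lower coverage at 48 h was seen toward the edge of the window, at Fmod, from 31.9 to 42.9 kb. There the islands came to 7.2 and 7 kb in empty-vector cells at 0 h and 0 and 1.4 kb at 48 h, and in SETD5-V5 cells to 6.8 and 11 kb at 0 h and none at 48 h. Upstream of Btg2 the islands between -26.5 and -18.5 kb were shorter too with the empty vector. They measured 4.2 and 3 kb in replicate A and 7.2 kb in replicate B at 0 h, and 3.2 and 1.8 kb in replicate A and 3 and 2 kb in replicate B at 48 h. Btg2 was the only member with H3K4me1 over its promoter, with islands of 1.8 kb at 0 h and 1 kb at 48 h.

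Btg3 encodes a BTG protein known as a target of p53 and a partner of E2F1. It spans chr16:78360105-78377437 on the minus strand, and its window also holds Cxadr. No H3K27ac was listed in its window in empty-vector cells at 0 h. At 48 h both libraries covered 2.6 kb. The SETD5-V5 cell libraries had 1.2 and 1 kb at 0 h and 4.4 and 4.2 kb at 48 h, above the empty-vector libraries at both times. These islands ranked low, and between 42.4% and 99.4% of the islands of a list scored higher. With islands above the list's median score alone, or with equal numbers of islands per list, the difference between vectors at 0 h was no longer called. The median filter also removed the call of 48 h against 0 h in empty-vector cells, where the Btg3 difference became 0 kb.

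The Btg3 island at the gene start measured 2.6 kb in empty-vector replicate A at 48 h and 1.2 kb in replicate B, where it lay inside the gene, from 0.437 to 1.64 kb. In SETD5-V5 cells it measured 1.2 kb and, inside the gene, 1 kb at 0 h, and 1.6 and 1.8 kb at 48 h. The rest of the acetylation of the window lay in an intron of Cxadr, from 31 to 33.8 kb, with 2.8 and 2.4 kb in SETD5-V5 cells at 48 h and 1.4 kb in empty-vector replicate B. Neither H3K4me1 nor endogenous SETD5 was listed anywhere in the window.

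SETD5-V5 covered more of the windows of Btg1 and Tob2 at 6 h than at 0 h with no overlap, and overlapped at the other 3 genes. Over all genes 56.4% were higher at 6 h and 1.29% lower, and the lists as a whole were longer at 6 h. With equal numbers of islands per list Btg1 and Tob2 were still called, but the difference at Btg1 was 8.8 kb instead of 17.4 kb, and that at Btg2 turned from 7.6 kb to -3.9 kb. At Tob2, SETD5-V5 covered 49.6 and 14.6 kb at 0 h and 97.5 and 89.6 kb at 6 h, or 88.2% and 81.1% of the window. At Btg1 it covered 20 and 15.6 kb at 0 h and 35.2 kb in both replicates at 6 h. The short list of replicate B at 0 h bears on all of these values. Within replicate A alone all 5 genes had more at 6 h, and within replicate B alone 4 did, all but Btg3.

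The Tob2 island of SETD5-V5 over the promoter measured 59.8 kb in replicate A and 29.2 kb in replicate B at 6 h, against 9.4 and 4.8 kb at 0 h. Of the bases of that window under SETD5-V5 in both libraries at 6 h (88.6 kb), 21.9% lay under H3K27ac in both empty-vector libraries at 0 h and 57.3% at 48 h. The shared SETD5-V5 stretches made up 80.2% of this 110.5 kb window. H3K27ac in both empty-vector libraries covered 19.4 kb of it at 0 h and 52.8 kb at 48 h. Shares in so widely bound a window stay near those of the whole window. At Btg1 the corresponding 31 kb were under H3K27ac for 51.6% at 0 h and 88.4% at 48 h. They made up 29.3% of a 105.8 kb window, where H3K27ac in both libraries covered 17 and 35.8 kb. The 2 downstream stretches of Btg1 bound at 6 h and not at 0 h, from 23 to 35.8 kb and from 37.2 to 42.4 kb, held islands of 9.2 and 12.8 kb and of 5.2 and 2.8 kb. The second overlaps the stretch that was under H3K27ac at 48 h and not at 0 h in both vectors.

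At Tob1, SETD5-V5 covered 11 and 5.2 kb at 0 h and 11.2 and 9.61 kb at 6 h. In replicate B at 0 h the island lay past the promoter, from 3.03 to 8.23 kb, and at 6 h it reached back over the start. None of the 8.2 kb bound in both libraries at 6 h carried H3K4me1 at either time, and no SETD5-V5 island touched the regions from -38 to -34.2 kb and from -19.4 to -15.2 kb. At Btg2, SETD5-V5 covered 7.8 and 0 kb at 0 h and 15.4 and 7.6 kb at 6 h, and the promoter was bound in both libraries at 6 h. At Btg3 it covered 3 kb in replicate A at 6 h and nothing in the other 3 libraries.

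Endogenous SETD5 was listed in the windows of 2 of the 5 genes at 0 h, Btg1 and Btg2, where 11.2% of all genes had an island, and of 4 at 6 h, all but Btg3, where 20.9% did. At Btg1 the island over the promoter measured 1.6 kb at 0 h and 13.4 kb at 6 h. At Tob2 an island of 15.2 kb covered the promoter at 6 h, and at Tob1 one of 6.2 kb began 0.033 kb past the start, with none at either gene at 0 h. All 3 of these 6 h islands lay wholly within the SETD5-V5 islands shared by both replicates. Those shared islands took up 80.2% of the Tob2 window, against 29.3% at Btg1, 7.88% at Tob1 and 5.77% at Btg2. At Btg2 the 6 kb island at 6 h began 2.1 kb past the start and had 23.3% of its length within the shared islands. The 3.8 kb island at 0 h lay in an intron of Chit1.

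**Figure D5:**
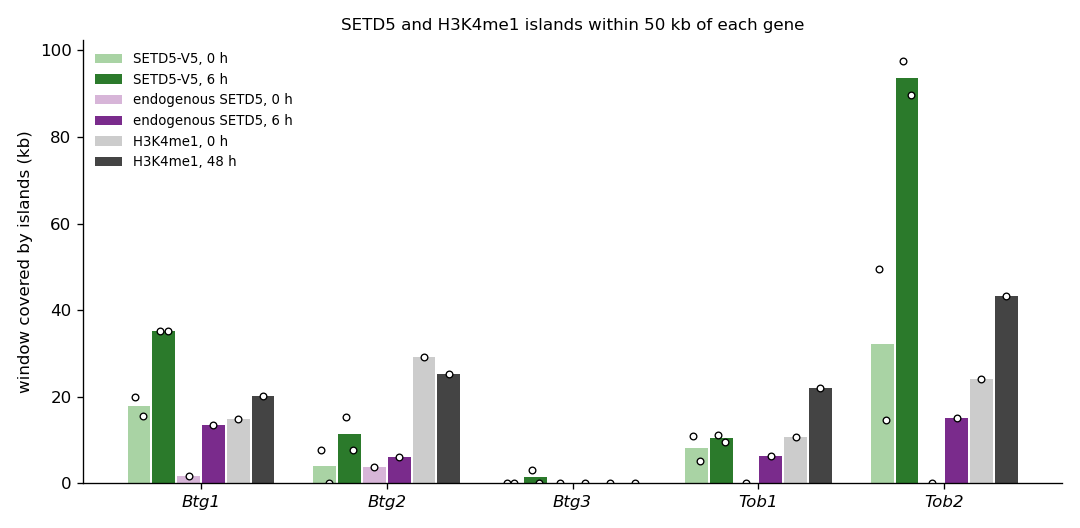
Kilobases of each gene's window under SETD5-V5, endogenous SETD5 and H3K4me1 islands, with bars for the mean (or for the only library) and circles for each library. SETD5-V5 at Tob2 stands at 97.5 and 89.6 kb at 6 h, and endogenous SETD5 reaches 15.2 kb at Tob2 and 13.4 kb at Btg1.

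H3K4me1 was past 1.5-fold higher at 48 h at Tob1 (10.8 and 22 kb at 0 h and 48 h) and Tob2 (24.2 and 43.3 kb), and at no member lower. Over all genes 32.2% were higher by this measure and 17.9% lower, and there is no replicate. At Btg1 it went from 14.8 to 20.2 kb and at Btg2 from 29.2 to 25.2 kb, both short of that fold. The promoters of Btg1, Tob1 and Tob2 lay in stretches without H3K4me1 islands, while H3K27ac islands covered them throughout. Most promoters lack such an island: only 16.1% of all genes had H3K4me1 over the promoter at 0 h and 18.2% at 48 h.

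The deadenylation machinery that BTG and TOB proteins work through was read from a list of 17 genes, all matched, which was also chosen with results of these data known. The genes named from it and from the list after it were picked after their values were seen. Of its windows, 8 had more H3K27ac at 48 h in empty-vector cells and 1 less, with a median difference of 1.3 kb against 0.7 kb over all genes, of which 40.1% were higher and 23.3% lower. Cnot7, whose product is the deadenylase bound by the BTG domain, had 2.6 and 3 kb at 0 h and 3.6 and 4.6 kb at 48 h. Cnot8, its close homologue, was the gene with less (5.5 kb in both libraries at 0 h and 3.7 kb at 48 h). Pabpc1, the partner of the TOB proteins on poly(A) tails, had 3 and 4.2 kb at 0 h and 6.6 and 6.8 kb at 48 h. In SETD5-V5 cells 5 of the 17 were higher at 48 h and 2 lower (median 0.4 kb), where the median over all genes was 0 kb and 31.9% were higher and 30.6% lower. Between vectors at 48 h, 1 was higher and 6 lower in SETD5-V5 cells, with a median of -0.2 kb against -0.4 kb over all genes, and Cnot7 (2.4 kb in both SETD5-V5 libraries) and Pabpc1 (3.8 and 3.4 kb) were among the 6. Of all genes, 22.6% were higher and 33.5% lower in that comparison. Between vectors at 0 h, 2 were higher and 2 lower, against 25.1% and 14.3% of all genes.

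SETD5-V5 was higher at 6 h at 13 of the 17 deadenylation genes and lower at none, with a median difference of 10.2 kb against 7.6 kb over all genes, of which 56.4% were higher and 1.29% lower. Pabpc1 had a SETD5-V5 promoter island of 33.6 and 29.4 kb at 6 h, against 9.4 and 0 kb at 0 h. H3K4me1 was higher at 3 and lower at 5 of them, and at 32.2% and 17.9% of all genes. Prmt1, the methyltransferase partner of Btg1 and Btg2, had a longer promoter island at 48 h in both vectors, 3.8 and 3.6 kb at 0 h and 6.4 and 5 kb at 48 h in empty-vector cells. Promoter islands of the list were longer at 48 h at 4 of 15 genes and shorter at 1 in empty-vector cells (29.5% and 13.1% of all genes). They were longer at 1 of 14 and shorter at 3 in SETD5-V5 cells (19.0% and 20.5% of all genes). Between vectors they were longer in SETD5-V5 cells at 5 of 15 and shorter at none at 0 h (14.3% and 11.3% of all genes). At 48 h they were longer at none of 15 and shorter at 2 (11.0% and 26.3% of all genes).

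Of 11 growth arrest genes and their regulators, 5 had more H3K27ac at 48 h in empty-vector cells and 2 less, with a median difference of 2.2 kb against 0.7 kb over all genes, of which 40.1% were higher and 23.3% lower. Ccnd1, the cyclin D1 gene on which TOB and BTG proteins act, had 14.2 and 13 kb at 0 h and 14.8 and 16.4 kb at 48 h. Cdkn1a, the p21 gene, had 26.6 and 25.4 kb at 0 h and 33 and 30.6 kb at 48 h. Foxo3, which encodes a forkhead factor, had the largest difference of the list in kb, with 14.8 and 11.4 kb at 0 h and 40.2 and 47 kb at 48 h. In SETD5-V5 cells Foxo3 had 15.2 and 18.4 kb at 0 h and 39.8 and 55.6 kb at 48 h. Of the 11, 4 were higher and 3 lower at 48 h in SETD5-V5 cells (31.9% and 30.6% of all genes). Between vectors 3 of 10 were higher and 1 lower at 0 h (25.1% and 14.3%), and 3 of 11 were higher and 3 lower at 48 h (22.6% and 33.5%). Promoter islands of this list were longer at 48 h at 4 of 10 genes and shorter at none in empty-vector cells (29.5% and 13.1% of all genes), and longer at 2 of 11 and shorter at 3 in SETD5-V5 cells (19.0% and 20.5%). Between vectors they were longer at 2 of 10 and shorter at 2 at 0 h (14.3% and 11.3%), and longer at 1 of 11 and shorter at 4 at 48 h (11.0% and 26.3%). SETD5-V5 was higher at 6 of 10 genes and lower at none (56.4% and 1.29% of all genes), and H3K4me1 was higher at 3 of 10 and lower at 1 (32.2% and 17.9%). Btg4, the remaining BTG gene, had no promoter island of H3K27ac in any library, and its window held 9 and 10.6 kb at 0 h and 6.78 and 6.6 kb at 48 h in empty-vector cells.

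The genes whose covered length across the 16 libraries was most like that of a member were found by Pearson's r of log2(bases + 200), centred on each library's median, leaving out genes whose windows overlap the member's. All genes share these libraries and the large differences between marks, so these are descriptions. Nearest to Btg1 were Sned1 (r = 0.985), S100a10 and Cog4, and nearest to Tob2 were Slc7a6 (r = 0.986), Gm8225 and Pla2g15. Nearest to Tob1 were Sgk2 (r = 0.974), C030046I01Rik and Arhgef37, and nearest to Btg2 were Add1 (r = 0.971), Tacc3 and Tmem129. For Btg3, which has islands in few libraries, they were Adam21, Med6 (both r = 0.98) and Sel1l. Overlap was excluded with the member's window only, so matches on the same chromosome can share islands with each other. The genes nearest to Btg2 all lie on chromosome 5 and those nearest to Btg3 on chromosome 12, and Slc7a6 and Pla2g15 lie on chromosome 8. No member was among the genes nearest to another member.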

How the data were processed

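ChIP-seq island lists of 16 libraries from 3T3-L1 cells were used, in 10 groups of 2 or 1 libraries taken from the labels. Per the study's methods, the authors aligned reads to mm9 (ELAND or Bowtie2, not given per library) and SICER or SICER2, which join enriched windows across gaps, gave the islands of each library. The numbers of islands match those listed for SICER2 in every A replicate and for endogenous SETD5. H3K4me1 was called with SICER2, and the caller of the B replicates is not given. The deposited score of each island is the caller's value, and served here only to order or select the islands of a single list. Coordinates were converted to 1-based positions. All starts lay on a 200 bp grid, and no gap was under 600 bp (H3K27ac, H3K4me1) or 800 bp (SETD5). Depth per library was not used, so the precision of a single island is unknown.

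Genes came from GENCODE vM1 on mm9, with overlapping records of one symbol joined, and promoter sequences from RefSeq. Coverage, promoter islands and calls over all protein-coding genes were computed in Python 3.11.15 with NumPy 2.4.6, and the code was tested on simulated lists. Calls across all genes use no p-value: with 2 libraries against 2, an exact two-sided permutation test cannot go below p = 0.333. The members and lists were chosen with earlier results of these data known. All 5 members were named in every comparison, with the islands over promoters, the top-scoring islands, and regions present in both libraries of one group and neither of the other. Alternatives were windows of 20 and 100 kb, islands with at least 50% of their length in the window, score filters, merging, a promoter of 2000 bp on both sides, and leaving out a replicate. The count over bases nearest to a member's start was added after seeing the data. Some regions that met the naming rule are not reported here.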

Additional observations from a re-analysis of the deposited data

How the results depend on the processing

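Of 144 recounts of members called higher or lower, 113 stayed within 1.5 times the first count and 31 moved. Of 360 recomputed differences of single genes, 291 moved by no more than the spread between replicates. In 24 the sign changed, in 20 of them for a gene not called in the first count of that comparison. An example is Tob2 between vectors at 48 h (0.1 kb, and -3.7 kb with 20 kb on each side, where it was called lower). The 4 differences called in the first count that changed sign were at Btg2. With 20 kb on each side its difference of 48 h and 0 h became 5.6 kb in empty-vector cells and 1 kb in SETD5-V5 cells, and over the bases nearest to its start, an alternative chosen after seeing the data, 5.497 kb and 0.003 kb. The number of genes lower at 48 h went from 1 to 0 in both vectors under both of these settings, and in empty-vector cells with islands above the median score. Between vectors at 0 h, 1 window was lower with 20 kb on each side (Btg1), 0 were higher with islands above the median score or equal numbers per list, and 2 were higher over the bases nearest to a start. SETD5-V5 was higher at 6 h at 4 genes with 100 kb on each side. Over promoters, between vectors at 0 h, 1 island was longer with 2000 bp on both sides (Btg3) and 0 were shorter with islands within 1000 bp merged (1 before). At 48 h, 1 was longer with islands above the median score (Btg2) and 2 were shorter after merging (Btg1 and Tob2). Merging joined the Tob2 pair of SETD5-V5 replicate B, whose gap was 1 kb, but not that of replicate A (1.8 kb). The joined stretch ran from -5.97 to 28 kb of the start, close to the -5.37 to 28.8 kb of empty-vector replicate A. The cause was not tested.

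Without replicate A or without replicate B, members called ranged as follows. Between vectors at 0 h, 1 to 4 windows were higher and 1 to 3 lower, and 1 promoter island was longer and 3 were shorter. Between vectors at 48 h, 1 to 2 windows were higher, 1 to 2 promoter islands were longer and 3 were shorter. SETD5-V5 was higher at 6 h at 4 to 5 genes. Promoter islands at 48 h were shorter at 0 to 1 genes in both vectors, and longer at 4 to 5 in SETD5-V5 cells. A single library per group gives a call whenever values differ, so more calls follow from the construction. No paired analysis was possible because the results come from no test, so no fit could take the replicate letter as a block. Differences within a letter are those with the other replicate left out.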

Other observations

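Some other genes share the windows. Fmod, which encodes the matrix proteoglycan fibromodulin and lies in the Btg2 window, had a promoter island of H3K27ac of 7.6 and 1.8 kb in empty-vector cells at 0 h and 4 and 11 kb in SETD5-V5 cells, and none in the 4 libraries at 48 h. H3K4me1 covered the Fmod promoter with 7.8 kb at 0 h and had no island over it at 48 h. Tef, a circadian leucine zipper factor in the Tob2 window, had a promoter island of 11.8 and 11.6 kb at 0 h and 4.4 and 6.2 kb at 48 h in empty-vector cells. In SETD5-V5 cells the Tef island measured 12.2 and 13 kb at 0 h and 5.8 and 12.6 kb at 48 h.

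Wfikkn2, Cxadr, Chit1 and Gm8618 had no promoter island in any of the 16 libraries.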
